A study of Mus musculus with 8 samples.

Results

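RGS proteins (regulators of G protein signalling) switch off the signal that chemokine receptors and other G protein-coupled receptors send into a cell. The 8 genes described here, Rgs1, Rgs2, Rgs3, Rgs10, Rgs14, Rgs16, Rgs18 and Rgs19, were chosen by symbol, with symbols assigned from the Ensembl identifiers. They are 8 of the 37583 genes in the count tables, and all 8 were among the 13964 genes that passed the filter on low counts. RNA was sequenced from B cells of C57BL/6 (B6) mouse spleen in 8 libraries. There were 3 libraries from naive B cells (naive below) and 3 from B cells kept with CpG ODN1668, an oligonucleotide that activates TLR9, for 3 days (CpG below). A further 2 libraries came from B cells with the same CpG stimulation to which LPS, which activates TLR4, the phorbol ester PMA and the ionophore ionomycin were added for the last 5 hours (TLR below). The labels call both stimulated populations Bregs, regulatory B cells, a name for B cells that restrain immune responses, mainly through IL-10. No cell sorting after culture is described, and the labels do not say that replicates are separate animals or cultures. All p-values therefore measure the spread among these libraries, which may be technical.

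A chemokine receptor that binds its ligand loads GTP onto the alpha subunit of a heterotrimeric G protein, and the alpha subunit and the beta-gamma dimer then drive migration. RGS proteins speed up the hydrolysis of that GTP by the alpha subunit and so shorten the response. Lymphocytes are known to use them to set how strongly they follow CXCL12, CXCL13 and CCL19 or CCL21 through the spleen. Rgs1, Rgs2, Rgs3, Rgs16 and Rgs18 encode members of the R4 subfamily, Rgs10 and Rgs14 of the R12 subfamily, and Rgs19 (also called GAIP) of the RZ subfamily.

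Across the 8 libraries, gene counts summed to between 15804311 and 20069272, and 1 count was worth 0.0501 to 0.0645 CPM (counts relative to the TMM-scaled library size), the scale of all levels below unless another is named. Library names began with RCa1 for replicate 1 of each group and with RCa18 for all others, and what these prefixes stand for is not stated. The share of the tables' total counted as not uniquely aligned was 37.5% to 50.2% in RCa1 and 14.7% to 21.5% in RCa18 libraries. The 6 B cell markers (Cd79a, Cd79b, Ms4a1, Pax5, Cd22 and Blk) summed to 8315 to 8785 CPM in naive, 7066 to 10501 CPM in CpG and 2126 and 2228 CPM in TLR libraries, and all 6 fell between CpG and TLR. The 12 macrophage and monocyte markers summed to 1426, 345 and 188 CPM in naive replicates 1 to 3, to 30.8 to 60.3 CPM in CpG and to 20.0 and 27.4 CPM in TLR libraries, with none of the 12 at 0 in any group. The 10 platelet and megakaryocyte markers summed to 8.11 to 23.3 CPM in naive, 5.08 to 5.55 CPM in CpG and 4.59 and 6.04 CPM in TLR libraries, with Ppbp, Gp1bb, Gp6 and Treml1 at 0 in TLR. The 7 T cell markers summed to 5.66 to 19.7 CPM in naive and to at most 1.60 CPM in the other libraries. In such bulk libraries fewer cells of a type and less RNA per cell cannot be told apart.

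The bases just upstream of 3 start sites are shown, for the members with a single annotated window, which are also 1 each of the 3 outcomes of CpG culture. Rgs16 rose, Rgs10 fell, although its call was lost in 4 of 17 alternatives, and Rgs2 did not pass the test. RefSeq windows of build GRCm38.p6 were matched by symbol for 5 of the 8 genes, among them 2 for Rgs3 and 3 for Rgs19, whose falls held in all 17 alternatives, and none was matched for Rgs1, Rgs14 and Rgs18. Each line holds the 250 bases before the annotated start site, 5′ to 3′ on the strand of the gene, with matches to the searched motifs in capitals. The Rgs16 stretch lies at chr1:153740103-153740352 on the plus strand, the Rgs10 stretch at chr7:128418173-128418422 on the minus strand and the Rgs2 stretch at chr1:144004150-144004399 on the minus strand.
Rgs16: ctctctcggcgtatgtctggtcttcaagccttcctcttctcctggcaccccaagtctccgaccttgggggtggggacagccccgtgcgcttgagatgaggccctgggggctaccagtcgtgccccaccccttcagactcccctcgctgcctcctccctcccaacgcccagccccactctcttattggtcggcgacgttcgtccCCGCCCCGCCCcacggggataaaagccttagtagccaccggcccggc
Rgs10: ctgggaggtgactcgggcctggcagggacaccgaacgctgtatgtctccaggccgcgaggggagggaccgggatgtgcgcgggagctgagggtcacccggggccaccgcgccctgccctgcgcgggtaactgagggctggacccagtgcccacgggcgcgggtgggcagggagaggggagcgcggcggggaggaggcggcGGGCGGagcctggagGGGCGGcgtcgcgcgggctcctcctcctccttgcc
Rgs2: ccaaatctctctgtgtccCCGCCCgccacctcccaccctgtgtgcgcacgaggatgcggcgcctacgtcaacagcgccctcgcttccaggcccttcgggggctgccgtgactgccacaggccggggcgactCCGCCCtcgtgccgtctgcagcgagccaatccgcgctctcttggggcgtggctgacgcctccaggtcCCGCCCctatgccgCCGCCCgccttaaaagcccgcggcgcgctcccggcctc
All capitals mark the GC box (GGGCGG on either strand), which 32.7% of all 32851 RefSeq windows of this length held. Rgs16 had 2 matches, which overlap by 1 base at -47 to -37 from the start site, Rgs10 had 2 between -50 and -30, and Rgs2 had 4 between -232 and -33. The other letters searched on both strands were NF-kB (GGG, any 3 bases, TTCC; in 4.65% of all windows), AP-1 (TGANTCA; 6.75%), CRE (TGACGTCA; 1.55%), EGR (GCGTGGGCG; 0.536%) and the TATA box (TATAAA; 12.4%), and none of them was in these 3 windows. Both Rgs3 windows held TATAAA, and 1 window of Rgs3 and 2 of Rgs19 held the GC box. The GC content of the 3 windows shown was 66.4% for Rgs16, 76.4% for Rgs10 and 72.4% for Rgs2, against a median of 52.4% over all windows. It was 48.4% and 56.8% in the windows of Rgs3, and 54.4%, 74.8% and 64.8% in those of Rgs19. Matching letters are a description of the sequence and not a test of any factor.

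The first question is how these regulators differed between naive cells and cells kept with CpG for 3 days. No library came from B cells cultured for 3 days without CpG, so effects of CpG and of culture cannot be told apart. Changes described as with CpG are differences between these groups throughout. Of the 8 genes 6 fell (Rgs1, Rgs3, Rgs10, Rgs14, Rgs18 and Rgs19), 1 rose (Rgs16) and Rgs2 did not pass the test (edgeR quasi-likelihood test, Benjamini-Hochberg adjusted p below 0.05 over all tested genes). Over all tested genes 21.9% were called lower and 23.5% higher. The median log2 fold change was -1.31 over the 8 genes and 0.01 over all tested genes. In the 6 that fell and in Rgs16 the naive and CpG libraries did not overlap. The share of all tested genes without such overlap was not computed, so whether this is particular to the members is not known.

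**Figure D1:**
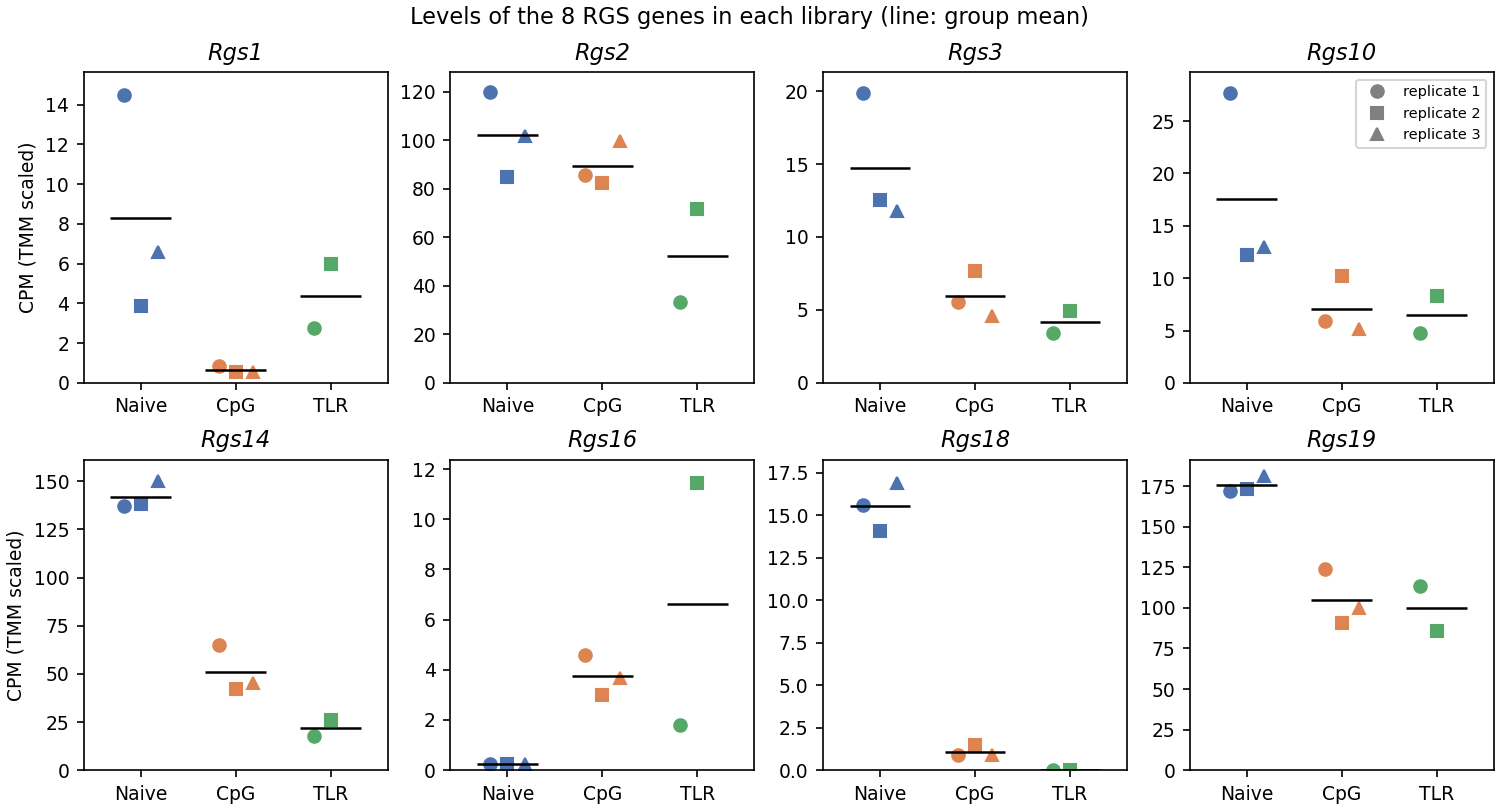
TMM-scaled CPM (y axis from 0) of each of the 8 RGS genes in every library of the naive, CpG and TLR groups (x axis), with marker shape for the replicate number and a black line for the group mean. Rgs14 and Rgs18 step down from naive to CpG to TLR, Rgs1 dips in CpG at 0.534 to 0.838 CPM, and Rgs16 is near 0 only in the naive libraries.

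Rgs18, an R4 regulator best known from platelets and their precursors, had the largest fitted fall, close to that of Rgs1. Its naive libraries held 15.6, 14.1 and 16.9 CPM, and its CpG libraries 0.903, 1.50 and 0.873 CPM. The naive libraries lay close together, far above every CpG library. The fall was 14.1-fold (log2 fold change -3.82 ± 0.29, SE; edgeR adjusted p = 2.23e-05). Platelet and megakaryocyte markers were lower in CpG too (2 of 4 tested called, Gp1ba and Gp5). Their sum differed between naive libraries by more than Rgs18 did, at 23.3, 8.11 and 12.9 CPM, and their part in the fall of Rgs18 was not tested.

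Rgs1, an R4 regulator that restrains the response of B cells to lymphoid chemokines, was at 14.5, 3.86 and 6.58 CPM in naive and at 0.838, 0.534 and 0.546 CPM in CpG replicates 1 to 3. Naive replicate 1 was the highest and also held the most macrophage markers. Both other naive libraries were above every CpG library in Rgs1, and in summed macrophage and monocyte markers too (345 and 188 against 30.8 to 60.3 CPM). The log2 fold change of Rgs1 was -3.70 ± 0.56 (edgeR adjusted p = 0.000626), and it was -3.04 without naive replicate 1. The CpG value rests on 33 counts, 13, 10 and 10 in the 3 libraries.

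Rgs14, an R12 regulator that also carries a GoLoco motif which binds inactive Gi alpha, was among the most abundant members in naive cells. It fell from 137, 138 and 150.0 CPM in naive to 65.1, 42.2 and 45.1 CPM in CpG replicates 1 to 3. The log2 fold change was -1.48 ± 0.18 (edgeR adjusted p = 0.000198), with the naive libraries all above 130 CPM and the CpG libraries all below 70. Rgs19, which acts on Gi alpha subunits, fell less, from 172, 173 and 181 to 124, 90.8 and 99.8 CPM, by 0.74 ± 0.14 on the log2 scale (edgeR adjusted p = 0.00242). Of the members that fell, Rgs19 had the smallest change.

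Rgs3 and Rgs10 fell from low levels. Rgs3, an R4 regulator with several isoforms that the counts do not separate, went from 19.8, 12.5 and 11.8 CPM to 5.55, 7.69 and 4.58 CPM (log2 fold change -1.31 ± 0.29, edgeR adjusted p = 0.00489). Rgs10, a small R12 regulator known from microglia, macrophages and lymphocytes, went from 27.7, 12.2 and 12.9 CPM to 5.87, 10.2 and 5.18 CPM (-1.31 ± 0.39, edgeR adjusted p = 0.0206). In both genes naive replicate 1 was the highest library. Without it Rgs3 still fell (-1.04), while Rgs10 lost the call (-0.83, edgeR adjusted p = 0.0734). Rgs10 was not called either when CpG replicate 1 (-1.19, adjusted p = 0.0629) or CpG replicate 3 (-1.13, adjusted p = 0.0723) was left out, or among RCa18 libraries only (-0.71, adjusted p = 0.120). The macrophage and monocyte markers, 11 of 12 of which fell, were highest in the same naive library. So were the summed markers of plasma cells (1341, 353 and 356 CPM in naive replicates 1 to 3), natural killer cells (43.4, 11.5 and 38.4 CPM, with all 5 lower in CpG), dendritic cells (61.4, 24.6 and 31.7 CPM), erythroid cells (40.7, 2.50 and 6.94 CPM) and neutrophils (17.1, 0.902 and 6.68 CPM). Most of the plasma cell sum in naive replicate 1 came from Jchain (1147 CPM), and most of the neutrophil sum from Retnlg (15.3 CPM). The neutrophil markers S100a8, S100a9, Cxcr2 and Mpo were highest in naive replicate 3 instead. The summed T cell markers (19.7 CPM) and basophil and mast cell markers (5.95 CPM) were also highest in naive replicate 3. The part of these cells in the falls of Rgs1, Rgs3 and Rgs10 was not tested.

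Rgs16, an R4 regulator that lymphocytes induce on activation, went the other way. Each naive library held 5 counts (0.260, 0.250 and 0.261 CPM), and the CpG libraries held 71, 56 and 67 counts (4.58, 2.99 and 3.66 CPM). The rise was 14.2-fold (log2 fold change 3.83 ± 0.67, edgeR adjusted p = 0.00146), to a level that was still low. Counting ignored strand, and Rgs16 was the only one of the 8 genes whose exons overlapped another annotated gene, over 236 of 2339 bases, on the opposite strand. Rgs2, an R4 regulator with a preference for Gq over Gi alpha subunits, held 119.9, 84.8 and 102 CPM in naive libraries and 85.7, 82.5 and 99.7 CPM after CpG. These ranges overlapped, and the log2 fold change was -0.19 ± 0.24 (edgeR adjusted p = 0.542).

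The second question is what the last 5 hours with LPS, PMA and ionomycin added. Against CpG, 1 of the 8 genes rose (Rgs1), 2 fell (Rgs14 and Rgs18) and 5 did not pass the test, where 19.0% of all tested genes were called higher and 19.8% lower. The median log2 fold change was -0.31 over the 8 genes and -0.02 over all tested genes.

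Rgs1 rose. Its 2 TLR libraries held 2.77 and 5.99 CPM (49 and 116 counts), both above all 3 CpG libraries, and it rose by 2.78 ± 0.59 on the log2 scale (edgeR adjusted p = 0.00466; 2.11 without TLR replicate 2). TLR replicate 1 was below, and TLR replicate 2 within, the range of the naive libraries.

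Rgs18 had no count in either TLR library, against 58 counts in the CpG libraries and 905 in the naive ones. By counting noise alone, without the spread between replicates, a group with no count can hide up to 3 counts. Over both TLR libraries that is 0.0810 CPM. With the TLR group set at that limit, Rgs18 was at least 13.5-fold below the CpG mean and at least 192-fold below the naive mean. The edgeR tests were run on the counts themselves, against no change and not against these bounds. The edgeR adjusted p was 0.000188 for TLR against CpG and 2.20e-06 for TLR against naive. Rgs14 fell again, to 17.8 and 25.8 CPM, below all CpG libraries (log2 fold change -1.22 ± 0.22, edgeR adjusted p = 0.00170). The 6 B cell markers fell in the same libraries with a median log2 fold change of -1.78, and their part in the falls of Rgs14 and Rgs18 was not tested.

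In Rgs2 and Rgs16 the TLR libraries disagreed with each other. Rgs2 was at 33.2 and 71.7 CPM in TLR replicates 1 and 2, both below the CpG libraries, with a log2 fold change of -0.77 ± 0.28 that missed the threshold (edgeR adjusted p = 0.0534). It was called lower without TLR replicate 2 (-1.43, adjusted p = 0.00239), with no filter on low counts (-0.77, adjusted p = 0.0142) and by DESeq2 (-0.78, adjusted p = 0.0166). Rgs16 was at 1.81 and 11.5 CPM in TLR replicates 1 and 2, with the CpG libraries in between (0.83 ± 0.59, edgeR adjusted p = 0.294). Within the prefixes its direction was opposite, with a log2 ratio of -1.34 between the RCa1 libraries and a log2 fold change of 1.78 in the RCa18 libraries (edgeR adjusted p = 0.00697). The RCa18 set holds only TLR replicate 2, so its p-values for TLR assume that this single library varies like the other groups. The called rise without TLR replicate 1 (1.62, adjusted p = 0.0118) rests on that same library, and leaving it out gave -1.05, which was not called.

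For the other members the TLR and CpG libraries overlapped. Rgs19 stood at 114 and 85.9 CPM in the TLR libraries (log2 fold change -0.07 ± 0.16, edgeR adjusted p = 0.757). Rgs10 stood at 4.76 and 8.26 CPM (-0.12 ± 0.44, adjusted p = 0.853) and Rgs3 at 3.40 and 4.96 CPM (-0.51 ± 0.33, adjusted p = 0.259).

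**Figure D2:**
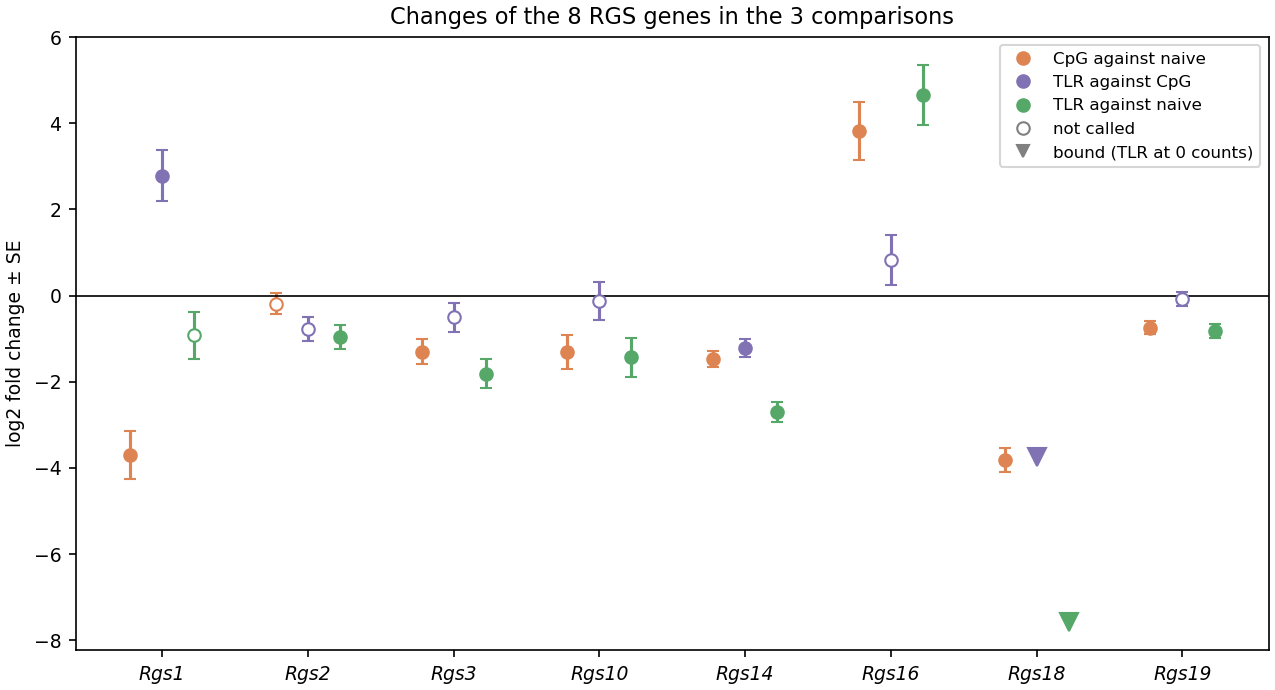
Log2 fold change ± SE (y axis) of each RGS gene (x axis) in the 3 comparisons. Filled circles passed the edgeR test at an adjusted p below 0.05, open circles did not, and triangles are bounds for Rgs18, which had no count in TLR. Rgs1 is the only member that fell with CpG (-3.70) and rose in the final step (2.78). Rgs16 is the only one above 0 in all 3, but its TLR against CpG value was not called and was -1.05 without TLR replicate 2.

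The third comparison sets the complete treatment against naive cells and shares its libraries with the other 2. Of the 8 genes 6 were lower in TLR than in naive libraries (Rgs2, Rgs3, Rgs10, Rgs14, Rgs18 and Rgs19) and 1 was higher (Rgs16), where 29.7% of all tested genes were lower and 31.6% higher. The median log2 fold change was -1.20 over the 8 genes and 0.01 over all tested genes. Rgs14 was 6.49-fold lower (log2 fold change -2.70 ± 0.23, edgeR adjusted p = 7.47e-06), Rgs3 3.52-fold lower (-1.81 ± 0.34, adjusted p = 0.00120) and Rgs19 1.76-fold lower (-0.82 ± 0.16, adjusted p = 0.00178). Rgs16 was higher by 4.66 ± 0.70 (adjusted p = 0.000310), a value that was 2.79 without TLR replicate 2 and 5.45 without TLR replicate 1, and called both times. Rgs1, which fell with CpG, no longer passed the test against naive cells (-0.92 ± 0.54, edgeR adjusted p = 0.167). Its log2 ratio between the RCa1 libraries was -2.38, and its log2 fold change within RCa18 was 0.19.

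The calls of Rgs2 and Rgs10 rested on single libraries. Rgs2 fell by 0.96 ± 0.28 on the log2 scale (edgeR adjusted p = 0.0137), or by 1.62 without TLR replicate 2, and was not called without TLR replicate 1 (-0.50, adjusted p = 0.0791) or among RCa18 libraries only (-0.39, adjusted p = 0.106). Rgs10 fell by 1.43 ± 0.45 (edgeR adjusted p = 0.0190) and was not called without naive replicate 1 (-0.96, adjusted p = 0.0513), without TLR replicate 1 (-1.08, adjusted p = 0.140) or among RCa18 libraries only (-0.61, adjusted p = 0.240). For Rgs3, Rgs14 and Rgs19 the call and the direction held without each library in turn and within the RCa18 libraries.

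Levels can be set side by side between genes only per length of transcript, here CPM per kilobase of the union of annotated exons. On that scale Rgs19 led in every library, with 77.2 to 81.2 in naive, 40.7 to 55.6 in CpG and 50.9 and 38.5 in TLR libraries. In naive cells Rgs14 (33.5 ± 1.67 CPM per kilobase, mean ± SD, n = 3) and Rgs2 (28.2 ± 4.85) followed, and their libraries overlapped. Next came Rgs10 (10.3 ± 5.10) and Rgs18 (7.65 ± 0.700), which overlapped as well, then Rgs3 (1.36 ± 0.412) and Rgs1 (1.20 ± 0.794), which overlapped, and Rgs16 was last (0.110 ± 0.00254). In CpG libraries Rgs2 (24.6 ± 2.52) stood above Rgs14 (12.0 ± 2.94) with no overlap. Rgs10 (4.14 ± 1.59) and Rgs16 (1.60 ± 0.341) came next, Rgs3 (0.550 ± 0.147) and Rgs18 (0.537 ± 0.173) overlapped, and Rgs1 was last (0.0921 ± 0.0248). In TLR libraries Rgs2 (9.15 and 19.8) was above Rgs14 (4.21 and 6.09), the levels of Rgs14, Rgs10, Rgs16, Rgs1 and Rgs3 overlapped from each to the next, and Rgs18 had none.

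The summed level of the 8 genes was 161 ± 10.6 CPM per kilobase in naive, 90.6 ± 9.62 in CpG (n = 3 each) and 68.5 and 75.4 in the 2 TLR libraries, so that the 3 groups did not overlap. Rgs19 made up 49.1% ± 3.45 of the sum in naive and 51.7% ± 2.91 in CpG libraries, and 74.3% and 51.1% in TLR replicates 1 and 2. The share of Rgs14 went from 20.8% ± 1.59 in naive to 13.1% ± 1.80 in CpG, and was 6.14% and 8.07% in TLR. The share of Rgs2 was 17.4% ± 1.89 in naive, 27.4% ± 3.86 in CpG, and 13.3% and 26.2% in TLR. Rgs18 gave 4.75% ± 0.321 of the sum in naive and 0.607% ± 0.251 in CpG, and Rgs16 0.0685% ± 0.00315 in naive, 1.75% ± 0.191 in CpG, and 1.13% and 6.50% in TLR. Dividing by the longest transcript instead left Rgs19 first in all 3 groups, at 48.2%, 52.4% and 63.6% of the sum on average. It removed the 3 overlaps among naive libraries, since Rgs14 (57.7 to 63.0 CPM per kilobase) then stood above Rgs2 (28.1 to 39.7), Rgs10 (13.8 or more) above Rgs18 (8.33 or less) and Rgs3 (2.51 or more) just above Rgs1 (2.48 or less). The naive mean of Rgs3 was 3.13 and that of Rgs10 20.0 on that scale, so the order of these neighbours depends on the length used.

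**Figure D3:**
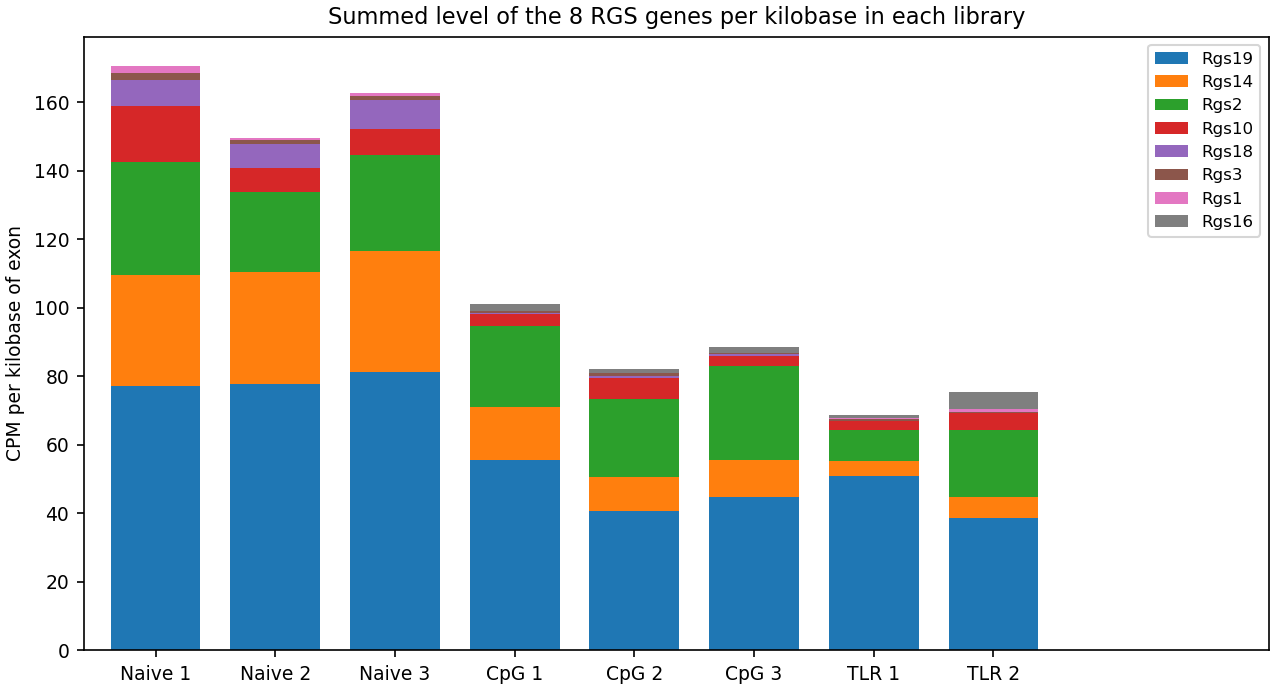
CPM per kilobase of exon (y axis) of the 8 RGS genes, stacked, in each of the 8 libraries (x axis). The naive bars reach 149.6 to 171, the CpG bars 82.2 to 101 and the TLR bars 68.5 and 75.4, with Rgs19 as the tallest block in every library.

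Several members are neighbours on the genome. In the GENCODE M21 annotation, among protein-coding genes that are also in the count tables, Rgs2, Rgs13, Rgs1 and Rgs18 stand next to each other on chromosome 1, all on the minus strand, and Rgs16 stands beside Rgs8 elsewhere on the same chromosome. The calls of the 4 neighbours differed. With CpG Rgs18 and Rgs1 fell, while Rgs2 (-0.19 ± 0.24) and Rgs13 (0.54 ± 0.30, edgeR adjusted p = 0.167) did not pass the test. In the final step Rgs18 fell to no count and Rgs1 rose. Rgs13, an R4 gene known from germinal centre B cells, was at 4.90, 7.81 and 4.44 CPM in naive, 7.22, 7.48 and 10.2 CPM in CpG, and 7.53 and 12.6 CPM in TLR libraries. Its difference between TLR and naive was at the threshold (0.82 ± 0.32, edgeR adjusted p = 0.0505; 0.86 and adjusted p = 0.0253 with the library prefix as a term). It was called without naive replicate 2 (1.10, adjusted p = 0.0195) and without TLR replicate 1 (1.15, adjusted p = 0.0295).

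Of the 16 other RGS genes and RGS-associated genes listed, 15 were found in the tables and 6 passed the filter (Rgs8, Rgs9, Rgs9bp, Rgs11, Rgs12 and Rgs13). None was called in any of the 3 comparisons by edgeR with all libraries. At an unadjusted p below 0.05, 3 of them differed between CpG and naive, 0 between TLR and CpG and 1 between TLR and naive, and DESeq2 called 2 (both higher in CpG than naive), 0 and 0. Rgs12, a large R12 regulator, was at 5.63 ± 0.946 CPM in naive and 5.22, 16.3 and 12.2 CPM in CpG libraries (log2 fold change 1.00 ± 0.38, edgeR adjusted p = 0.0573), and without CpG replicate 1 it was called (1.34, adjusted p = 0.00501), as was a fall from CpG to TLR (-0.99, adjusted p = 0.0338). Rgs11, an R7 regulator known mainly from neurons, held 11, 292 and 34 counts in CpG replicates 1 to 3, so that a single library gave most of its level (2.25 ± 0.95, edgeR adjusted p = 0.0799; 2.78 and adjusted p = 0.0215 without CpG replicate 1). Without CpG replicate 2, the high library, the log2 fold change was 0.03 (adjusted p = 0.974). Rgs8, an R4 gene known mainly from brain, held 0, 14 and 22 counts in naive, 0, 5 and 2 in CpG, and 0 and 3 in TLR libraries (CpG against naive -2.18 ± 1.22, edgeR adjusted p = 0.173). It was called lower with CpG when the library prefix was a term (-2.22, adjusted p = 0.0351), among RCa18 libraries only (adjusted p = 0.0336) and without naive replicate 1 (adjusted p = 0.0327), and lower in TLR than naive in the latter 2 fits (adjusted p = 0.0489 and 0.0220). Rgs6, Rgs22 and Rgsl1 had no count in any library, which allows up to 0.0203 CPM over the 8 libraries together.

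The listed chemoattractant receptors, which signal through G proteins, mostly fell with CpG. Of 12 tested chemoattractant receptors 9 fell and 1 rose (Ccr9), with a median log2 fold change of -1.15, where 21.9% of all tested genes were called lower and 23.5% higher. Cxcr5, the receptor for CXCL13, fell from 550 ± 109 to 219 ± 18.0 CPM (n = 3 each; log2 fold change -1.33 ± 0.19, edgeR adjusted p = 0.000473), and S1pr1, which directs egress from lymphoid organs, from 402 ± 42.8 to 110.3 ± 25.2 CPM (-1.87 ± 0.17, adjusted p = 3.27e-05). Cnr2, a cannabinoid receptor, fell from 362 ± 69.0 to 72.2 ± 7.87 CPM. Cxcr4, the receptor for CXCL12, was called lower (-1.91 ± 0.52, edgeR adjusted p = 0.0135) although naive replicate 1 (118 CPM) overlapped the CpG libraries. Gpr183, a receptor for oxysterols, fell (-0.69 ± 0.19, adjusted p = 0.0132), which was not called when naive replicate 2 was left out (adjusted p = 0.0536) or among RCa18 libraries only (adjusted p = 0.0666). Ccr7, the receptor for CCL19 and CCL21, did not pass the test (254 ± 46.1 and 285 ± 60.1 CPM; 0.17 ± 0.24, edgeR adjusted p = 0.597).

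The final step lowered 7 of the 12 receptors further and raised none (by DESeq2 6 and 0; at an unadjusted p below 0.05 edgeR gave 7 and 0), with a median log2 fold change of -1.55, where 19.8% of all tested genes were called lower and 19.0% higher. The 6 B cell markers all fell in the same comparison (median -1.78), and their part in the falls of the receptors was not tested. S1pr1 fell to 3.81 ± 0.210 CPM (n = 2; -4.85 ± 0.25, edgeR adjusted p = 2.91e-06), Cxcr5 to 61.3 ± 19.3 CPM (-1.84 ± 0.23) and S1pr4 from 65.3 ± 13.9 to 11.6 ± 1.17 CPM (-2.50 ± 0.19). Cxcr4 (-0.81 ± 0.58, adjusted p = 0.299), Ccr7 (0.19 ± 0.27, adjusted p = 0.607) and Gpr183 (0.20 ± 0.21, adjusted p = 0.495) did not pass the test. Cxcr4 was at 78.7 and 27.6 CPM in TLR replicates 1 and 2, and its lower call among RCa18 libraries only (-1.91, edgeR adjusted p = 0.00403) rests on TLR replicate 2 alone. Against naive cells 8 receptors were lower in TLR and Ccr9 was higher (median -2.96), against 29.7% and 31.6% of all tested genes. DESeq2 gave 9 lower, with Gpr183 added (-0.55, adjusted p = 0.0256; -0.50 and 0.0632 by edgeR), and edgeR called Gpr183 lower too with DESeq2-type size factors (adjusted p = 0.0444), with no filter (adjusted p = 0.0319) and when just these groups were fitted (adjusted p = 0.0120).

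Among the G protein subunits on which RGS proteins work, the Gi alpha genes Gnai2 and Gnai3 did not pass the test with CpG. Gnai2, the main Gi alpha gene of lymphocytes, held 782 ± 14.1 CPM before and 777 ± 38.1 CPM after CpG (n = 3 each; -0.01 ± 0.11, edgeR adjusted p = 0.952), and Gnai3 at 197 ± 25.8 and 190 ± 46.5 CPM (-0.05 ± 0.19, adjusted p = 0.837). Of 10 tested alpha genes 1 rose (Gnaq, 0.83 ± 0.15) and 3 fell (Gna12, Gna13 and Gna15), where 23.5% of all tested genes were higher and 21.9% lower. DESeq2 gave 1 and 5, as did edgeR at an unadjusted p below 0.05. Of the 3 that fell, Gna13 was not called without naive replicate 2 (edgeR adjusted p = 0.0881), naive replicate 3 (adjusted p = 0.0947) or CpG replicate 1 (adjusted p = 0.0524). In the final step Gnai2 fell to 360 ± 24.9 CPM (n = 2; -1.11 ± 0.12, edgeR adjusted p = 0.000114), with Gna15 and Gnaq also lower and Gna12 higher, beside 19.8% of all tested genes lower and 19.0% higher. The call of Gnaq there (-0.57 ± 0.17) was lost without TLR replicate 1 (adjusted p = 0.0923) or TLR replicate 2 (adjusted p = 0.138), and that of Gna12 (0.67 ± 0.17) without TLR replicate 2 (adjusted p = 0.0933). Of 11 tested beta and gamma genes 7 rose with CpG and none fell, against 23.5% and 21.9% of all tested genes (by DESeq2 7 and 1; at an unadjusted p below 0.05 edgeR gave 7 and 0), among them Gnb5, the beta subunit that pairs with R7 RGS proteins, from 0.583 ± 0.133 to 6.77 ± 0.506 CPM. In the final step 5 of the 11 fell, among them Gng2, from 129 ± 0.856 to 45.0 ± 3.05 CPM, and 1 rose (Gng5, 0.58 ± 0.17), which was not called without TLR replicate 1 (adjusted p = 0.203), CpG replicate 2 (adjusted p = 0.0562) or CpG replicate 3 (adjusted p = 0.0697).

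The other listed regulators of these receptors and of alpha subunits had more falls than rises in each comparison. Over all tested genes 21.9%, 19.8% and 29.7% were lower and 23.5%, 19.0% and 31.6% higher. Of 15 tested receptor kinases, arrestins and other alpha subunit regulators 8 fell with CpG and 1 rose (Gpsm2), 9 fell and none rose in the final step (by DESeq2 9 and 0; at an unadjusted p below 0.05 edgeR gave 9 and 1), and 11 were lower and 2 higher in TLR than in naive libraries. The higher call of Gpsm2 against naive cells (1.42 ± 0.52, edgeR adjusted p = 0.0374) was not reached when any one naive or TLR library was left out (adjusted p between 0.0607 and 0.137). The median log2 fold changes of the list were -0.47, -0.63 and -1.26. Grk3, a receptor kinase, fell from 49.5, 20.7 and 19.3 CPM to 2.43 ± 0.560 CPM with CpG (-3.61 ± 0.41, edgeR adjusted p = 0.000112). Arrb1, which encodes arrestin beta 1, fell from 104 ± 7.35 to 48.4 ± 5.12 CPM with CpG and to 20.8 ± 3.19 CPM in the final step. Grk2, the most abundant of the kinase genes by CPM, fell only in the second step, from 1043 ± 107 to 488 ± 29.2 CPM. Of 16 tested effectors 5 rose and 4 fell with CpG, not far from the shares over all tested genes, and 7 fell and none rose in the final step (by DESeq2 8 and 1; at an unadjusted p below 0.05 edgeR gave 8 and 1). Prex1, a Rac activator that responds to G beta-gamma, fell from 172 ± 10.8 to 61.1 ± 5.09 CPM in the final step.

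**Figure D4:**
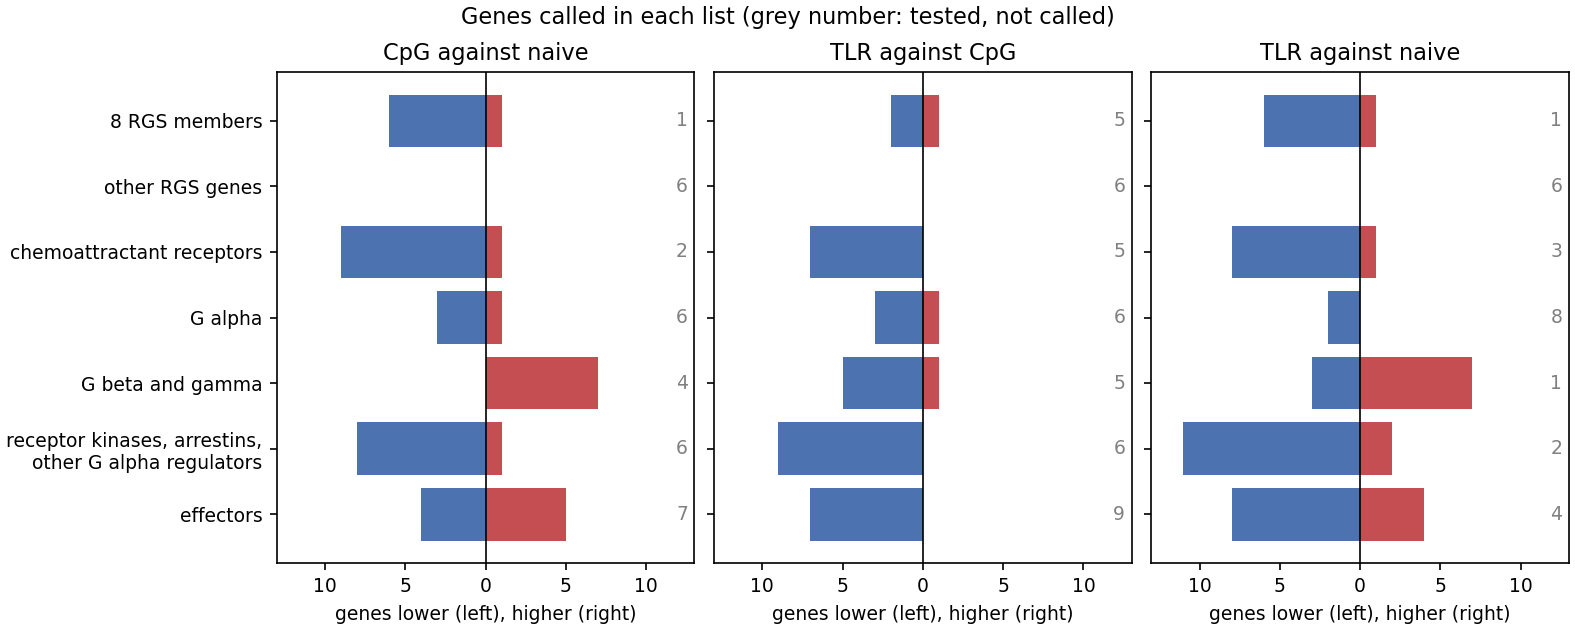
Number of genes called lower (blue, left of 0) or higher (red, right of 0) by edgeR at an adjusted p below 0.05 in the 8 RGS genes and 6 further lists, in each comparison. Grey numbers count tested genes that were not called. Lower calls outnumber higher ones in all 3 panels for RGS members, chemoattractant receptors, alpha subunits, and receptor kinases, arrestins and other alpha regulators. The beta and gamma subunits show 7 genes higher and none lower with CpG. Over all tested genes 21.9%, 19.8% and 29.7% were lower and 23.5%, 19.0% and 31.6% higher in the 3 comparisons.

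The genes whose log2 CPM followed each member most closely over the 8 libraries were sought among 8879 named protein-coding genes that averaged 8 CPM or more. The nearest were Trim12a for Rgs14 (Pearson r = 0.999), Pcmtd2 for Rgs18 (0.998; Blk, a kinase of the B cell receptor pathway, followed at 0.997), Gas8 for Rgs16 (0.991), Apoe for Rgs3 (0.990), Tmem87b for Rgs19 (0.989), Fam234a for Rgs10 (0.967), Tceanc2 for Rgs2 (0.964) and Mvp for Rgs1 (0.961). The 8 points share 3 group means and the library, so these values describe likeness over the groups and carry no test. Pearson r does not reflect the size of a change, and Mvp held 61.1 to 66.7 CPM in naive and 50.6 to 54.8 CPM in CpG libraries. Zyx, which encodes the adhesion protein zyxin, was also near Rgs1 (0.957) and dipped in CpG too, by less than Rgs1. It held 90.1 to 106 CPM in naive, 41.8 to 46.2 CPM in CpG, and 91.1 and 95.4 CPM in TLR libraries. Ccr9 was also near Rgs16 (0.979), with 2.45 to 4.17 CPM in naive, 10.4 to 14.6 CPM in CpG, and 8.49 and 19.5 CPM in TLR libraries.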

How the data were processed

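Polyadenylated RNA was made into strand-specific libraries, per the labels' protocols. The submitters' processing notes name build mm9 and the tools STAR, HTSeq and edgeR without versions, and their annotation release is not stated in what was used here. Values deposited by the authors are raw read counts for each Ensembl gene, and the authors' file names say that counting ignored strand. The 5 summary lines after the 37583 genes of each file stayed out of library sizes and tests. Symbols, exon lengths and neighbours came from GENCODE M21 by identifier (32860 matched; the other 4723 held at most 1.01% of a library's counts).

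Counts were filtered with filterByExpr, scaled by TMM and fitted in R 4.3.3 with edgeR 4.0.16 (quasi-likelihood, 1 mean per group over all 8 libraries, prior count 0.125), with Benjamini-Hochberg adjustment over 13964 genes. Each SE was taken from the log2 fold change and its F statistic (absolute change over root F). The pipeline was tested on simulated data. A marker in the planned B cell list is not reported here and was left out of its sums. Replicates of a group differed beyond counting noise (mean chi-square per gene 10.7 to 48.6, where 1 is counting noise). The members, lists and tests were chosen with earlier results of these data known. Named were all members, the other tested RGS genes, the called genes with the smallest p in each other list (up to 2 in each direction; not all are described), Cxcr4, Cxcr5, Ccr7, S1pr1, Gpr183, Gnai2, Gnai3 and Gnaq, and the genes most like each member (Pearson correlation of log2 CPM). Alternatives were DESeq2 1.42.0, other scaling and filters, a fit of just the 2 groups in question, a block on replicate number, the library prefix, other gene lengths, and each library left out in turn.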

Additional observations from a re-analysis of the deposited data

How the results depend on the processing

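Over 17 alternatives, the 8 genes kept their direction and side of the threshold in 132 of 136 values for CpG against naive, 125 of 136 for TLR against CpG and 130 of 136 for TLR against naive. The calls that changed were those of Rgs10, Rgs2 and Rgs16 given above. No called value changed sign. Values that were not called did so for Rgs10, Rgs16, Rgs19 and Rgs1. For TLR against CpG, leaving out each library gave -0.58 to 0.24 for Rgs10, -1.05 to 1.62 for Rgs16 and -0.29 to 0.11 for Rgs19, and RCa18 libraries only gave 0.10 for Rgs10. For TLR against naive, leaving out each library gave -1.57 to -0.26 for Rgs1, and RCa18 libraries only gave 0.19. Among the other named genes, sign changes of uncalled values came mostly from leaving out a library. The ranges were, for CpG against naive, -0.0190 to 0.267 for Ccr7, -0.0345 to 0.0311 for Gnai2 and -0.17 to 0.14 for Gnai3. For TLR against CpG they were -4.34 (with TLR replicate 1, which had no count, as the sole TLR library) to 0.42 for Rgs8, -1.16 to 0.15 for Rgs9, -2.07 to 0.93 for Rgs11, -0.14 to 0.60 for Rgs13, -0.33 to 0.57 for Ccr7 and -0.11 to 0.19 for Gnai3. For TLR against naive they were -0.0767 to 0.681 for Rgs12, -0.16 to 0.75 for Ccr7 and -0.0900 to 0.147 for Gnai3. RCa18 libraries only gave 0.0291 for Gnai3 (CpG against naive) and -0.41 and -0.31 for Ccr7 (TLR against CpG and against naive), and DESeq2 and its size factors gave -0.0247 and -0.0246 for Gnai3 (TLR against naive). The number of members called higher in TLR than in CpG was 2 among RCa18 libraries only and ranged from 1 to 2 when each library was left out, the second being Rgs16 without TLR replicate 1. In each comparison the numbers of members called were the same with the replicate number as a block as without it (1 higher and 6 lower for CpG against naive). With that block edgeR also called Gpr183 (-0.58, adjusted p = 0.0138) and Rgs13 (0.81, adjusted p = 0.0466) between TLR and naive. The replicate numbers were not taken as pairs, because nothing states that equal numbers share an animal, culture or day. Correlations of deviations from group means cannot decide this, with 2 or 3 libraries per group and the RCa1 prefix shared by replicate 1. For equal-numbered naive and CpG libraries they were 0.160, 0.104 and 0.004, and naive replicate 3 correlated best with CpG replicate 2 (0.150). For naive and TLR the equal numbers gave 0.135 and 0.037. For CpG and TLR they gave 0.313 and 0.273, and the crossed numbers -0.273 and -0.313, which mirror these because the TLR group has 2 libraries. Over all genes 5417 were called between TLR and CpG, and 3516 without TLR replicate 1, when the TLR group had a single library that was assumed to vary like the others. Setting another gene length moved 27 of 48 levels or shares by more than 1 SD with the longest transcript and 17 of 24 shares with no division by length. Depth limits Rgs1 in CpG, Rgs16 in naive and Rgs18 in TLR libraries, which rest on 33, 15 and 0 counts.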
